A study of Mus musculus with 6 samples.

Results

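Hyaluronan is a long, unbranched sugar polymer of the extracellular matrix, and skin holds much of the body's supply. Hyaluronan synthases at the plasma membrane build it, hyaluronidases and the CEMIP protein cut it, and a set of binding proteins anchors it in the matrix or on cell surfaces. In inflamed or wounded skin its amount, chain length and binding partners are known to change. The 10 genes described here cover these roles: the synthases Has1, Has2 and Has3, the hyaluronidases Hyal1 and Hyal2, the hyaluronan-degrading factor Cemip, the matrix binders Vcan and Tnfaip6, and the receptors Cd44 and Lyve1. They were chosen by gene symbol, with earlier results of these data known. All 10 were among the 35434 genes of the expression table.

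The tissue was lesional skin of mice with a psoriasis-like disease, taken after transfer of regulatory T cells. One group of 3 libraries came from mice given control cells (Ctrl-Treg), and the other 3 came from mice given Lenv-Treg cells, named in the series title as treated with lenvatinib, a receptor tyrosine kinase inhibitor. All 6 samples were skin and all mice had the disease, so there was no group without it or without transferred cells. Strain, age, sex, the way the disease was induced, cell dose and time after transfer were not stated in the sources used. No label says that the libraries of a group are from different animals, so the p-values speak for the spread among libraries, and that spread may be technical.

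Expression was given as FPKM, fragments scaled to gene length and to the assigned fragments of the library, and 1 read on a 1 kb gene was worth 0.0248 to 0.0258 FPKM. Depth recovered from the values was 38704537 to 40248463 assigned reads per library, so the deepest library held 1.04 times the reads of the shallowest. A difference is the Lenv-Treg mean less the Ctrl-Treg mean of log2(FPKM + 1). Low genes change by more than this scale shows. A gene was called at an adjusted p below 0.05 in limma. Of 13945 genes tested, 41.7% were called, 11.0% higher and 30.8% lower in Lenv-Treg, with a median difference of -0.17. After median-of-ratios scaling the median over all genes was 0.00 with 2417 genes higher and 2417 lower, and after rescaling to TPM it was -0.44 with 947 higher and 7970 lower, so small differences below depend on the scaling. The hair shaft and root sheath markers summed to 1297.7 to 2882.8 FPKM in Ctrl-Treg against 1.53 to 16.6 in Lenv-Treg (0 of 8 higher, 8 lower, of which 3 passed the filter only through Ctrl-Treg, with Krt31 and Krt33a at 0 in all Lenv-Treg libraries). Neutrophil markers summed to 48.3 to 191.1 and 38083.3 to 53776.8 FPKM (7 of 7 tested higher, of which Ly6g and Mmp8 passed the filter only through Lenv-Treg). S100a8 and S100a9, which inflamed keratinocytes also express, made up nearly all of that sum, and the other 6 markers summed to 4.48 to 9.88 and 215.9 to 422.5 FPKM. Mpo was at or near 0 in all libraries. These are bulk libraries, in which fewer cells of a type and less RNA per cell cannot be told apart.

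Of the 10 hyaluronan genes, 9 passed the filter on low values (FPKM of at least 0.5 in at least 3 libraries), and Has1 did not. Cemip passed only through the Lenv-Treg libraries. Lyve1, Cemip, Has3, Tnfaip6, Cd44 and Hyal1 rose, Vcan fell, and Has2 and Hyal2 were not called. That is 6 higher and 1 lower of 9 tested, beside backgrounds of 11.0% and 30.8%. The higher count includes Cemip, which entered the test only through its high Lenv-Treg values. Without a filter 4 were called higher, as Hyal1 and Tnfaip6 were not called. These counts describe a list chosen with earlier results known, and the contrast with the background was not tested. The median difference of the 9 was 0.73, against -0.17 over all tested genes. Counting all 10 genes, the groups did not overlap for 7 with higher and 1 with lower values in Lenv-Treg, and this was so for 55.4% of tested genes, 14.4% in the higher direction and 41.0% in the lower. With 3 against 3 libraries an exact permutation test cannot go below p = 0.1.

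**Figure D1:**
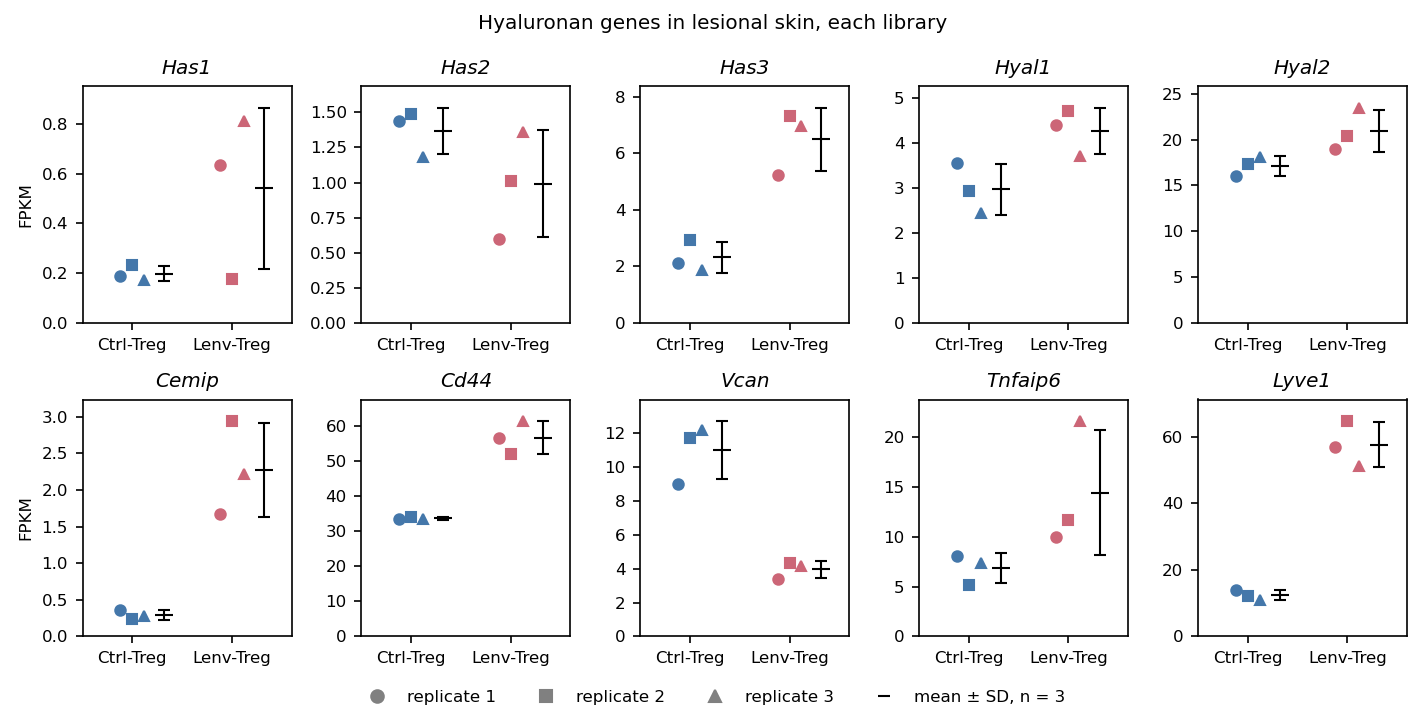
FPKM of the 10 hyaluronan genes (vertical axes, each from 0) in the 3 Ctrl-Treg and 3 Lenv-Treg libraries. Symbols are single libraries and black marks are the mean ± SD. The groups overlap for Has1 and Has2 only. Vcan is the gene that lies lower in all 3 Lenv-Treg libraries.

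Upstream sequence is shown for 3 of these genes. Cemip and Tnfaip6 are shown for holding the only matches to the motif forms searched, and Vcan as the gene called lower. Cd44 and Hyal1 also rose and held no match. The motifs were chosen with the sequences in view. Of the 10 genes, 7 matched an entry of the RefSeq promoter table (build GRCm38.p6, another build than that of the expression values). Has2, Has3 and Lyve1 had no entry and were not searched. The 250 bases before the annotated start are printed 5′ to 3′. Capitals mark matches on either strand to TGANTCA (the AP-1 motif) or TATAAA (the TATA box).
Cemip (chr7:84086506-84086755, - strand): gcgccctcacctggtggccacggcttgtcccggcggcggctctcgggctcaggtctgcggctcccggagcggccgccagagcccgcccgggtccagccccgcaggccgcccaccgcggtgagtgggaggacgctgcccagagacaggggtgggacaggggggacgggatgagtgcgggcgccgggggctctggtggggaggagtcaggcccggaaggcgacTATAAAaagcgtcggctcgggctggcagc
Tnfaip6 (chr2:52037863-52038112, + strand): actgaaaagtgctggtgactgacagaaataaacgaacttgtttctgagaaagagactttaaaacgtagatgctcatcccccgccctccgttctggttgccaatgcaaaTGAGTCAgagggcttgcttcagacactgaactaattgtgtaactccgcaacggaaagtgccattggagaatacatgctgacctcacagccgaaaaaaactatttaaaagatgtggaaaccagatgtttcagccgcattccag
Vcan (chr13:89742513-89742762, - strand): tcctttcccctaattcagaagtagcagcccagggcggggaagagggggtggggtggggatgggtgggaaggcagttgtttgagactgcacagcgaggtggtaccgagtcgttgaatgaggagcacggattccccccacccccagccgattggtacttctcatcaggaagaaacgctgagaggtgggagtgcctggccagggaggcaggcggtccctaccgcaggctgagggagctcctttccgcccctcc
The Tnfaip6 window held 1 AP-1 match, at bases -142 to -136 from the start. The Cemip window held 1 TATA box match, at -29 to -24. Neither motif matched in the windows of Vcan, Cd44, Has1, Hyal1 or Hyal2. The NF-kB motif, searched only as GGG and TTCC spaced by 3 bases, matched in none of the 7. Other forms of that motif were not searched, so its absence is not shown. Among 32536 windows of the same length in the table, 6.73% held the AP-1 motif, 12.3% the TATA box and 4.65% the NF-kB motif. No overlap between matched motifs occurred in these windows. Such a match describes the letters only.

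The HAS enzymes each make hyaluronan from the same sugar nucleotides and differ in activity and in the length of chain they release. Has3, the synthase most associated with keratinocytes, was 2.13, 2.94 and 1.88 FPKM in Ctrl-Treg and 5.22, 7.32 and 6.96 FPKM in Lenv-Treg. Every Lenv-Treg library lay above every Ctrl-Treg library. Has3 rose 2.81-fold, from 2.32 ± 0.553 to 6.5 ± 1.12 FPKM (SD, n = 3; difference 1.18, SE 0.16, adjusted p = 0.00127), on 1695 and 4825 reads over the groups. The difference was 1.06 after rescaling to TPM and 1.34 after median-of-ratios scaling.

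Has2, the main synthase of dermal fibroblasts, did not share that pattern. It was 1.44, 1.49 and 1.18 FPKM in Ctrl-Treg and 0.601, 1.01 and 1.36 FPKM in Lenv-Treg. The groups overlapped, since replicate 3 of Lenv-Treg lay within the Ctrl-Treg range. The difference was -0.27 (SE 0.15, 95% interval -0.61 to 0.08, adjusted p = 0.185), and it was called lower only after rescaling to TPM (-0.55, adjusted p = 0.032). Has2os, the antisense RNA gene that overlaps Has2, passed the filter only through Ctrl-Treg and fell from 0.805 ± 0.225 to 0.224 ± 0.0297 FPKM (-0.55, SE 0.11, adjusted p = 0.00578). The sources used here do not say whether counting used strand, so reads of the pair may be mixed.

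Has1, the least expressed synthase, was 0.190, 0.232 and 0.173 FPKM in Ctrl-Treg and 0.634, 0.178 and 0.809 FPKM in Lenv-Treg. Replicates 1 and 3 of Lenv-Treg were above all Ctrl-Treg libraries and replicate 2 was within their range. These values rest on 49 and 135 reads over the groups. In the limma fit without a filter on low values, where 21.7% of 25667 genes were called, Has1 was not called (0.34, SE 0.16, adjusted p = 0.192), with an exact permutation p = 0.3. Without Lenv-Treg replicate 2 it was called (0.52, adjusted p = 0.0189). Spaca6 and Gm36907 overlap Has1 in RefSeq, which makes so low a value uncertain. Overlapping genes are also annotated for Cemip (Gm30440), Cd44 (Gm23731) and Vcan (Gm16318 and Gm4117), with shared reads possible there too.

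The make-up of synthase expression differed between the groups. Because FPKM is per length, the 3 levels can be summed within a library. The sum was 3.76, 4.66 and 3.24 FPKM in Ctrl-Treg and 6.45, 8.51 and 9.13 FPKM in Lenv-Treg. Has3 held 56.6%, 63.1% and 58.2% of that sum in Ctrl-Treg, against 80.9%, 86.1% and 76.2% in Lenv-Treg. Has2 held 38.3%, 31.9% and 36.5% in Ctrl-Treg, against 9.32%, 11.8% and 14.9% in Lenv-Treg. Neither set of shares overlapped between groups, although each share comes from the same sum and so they are not independent. The mean Has2 share was 35.6% ± 3.30 in Ctrl-Treg and 12.0% ± 2.80 in Lenv-Treg (SD, n = 3). The exact two-sided permutation p was 0.1 for the Has2 and the Has3 share, the smallest possible, and 0.4 for Has1, or 0.15, 0.15 and 0.4 adjusted over the 3 shares. These values describe mRNA and not enzyme activity.

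**Figure D2:**
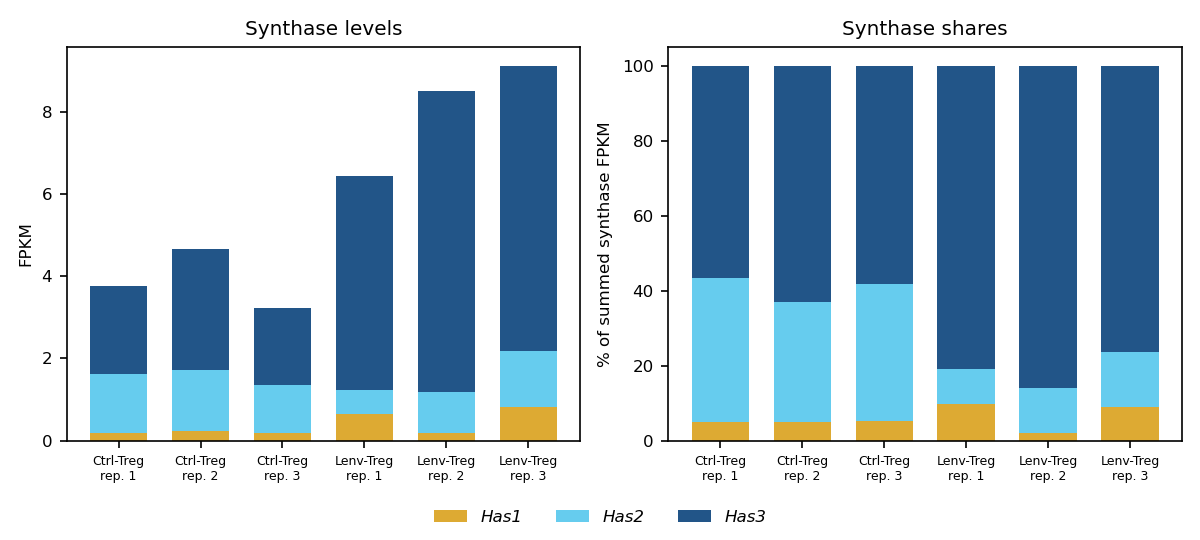
Stacked bars give the FPKM of Has1, Has2 and Has3 (left) and their share of the summed FPKM in percent (right), for each of the 6 libraries, with no error bars because each bar is 1 library. Has3 makes up 56.6% to 63.1% of the sum in Ctrl-Treg, against 76.2% to 86.1% in Lenv-Treg.

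Genes of turnover moved by very different amounts. Cemip encodes a secreted protein needed for hyaluronan breakdown by skin fibroblasts. It was 0.361, 0.240 and 0.278 FPKM in Ctrl-Treg and 1.67, 2.94 and 2.22 FPKM in Lenv-Treg. The lowest Lenv-Treg library was far above the highest Ctrl-Treg library. Cemip rose 7.75-fold, the largest ratio among the 10 genes, from 0.293 ± 0.0622 to 2.27 ± 0.637 FPKM (SD, n = 3; difference 1.32, SE 0.14, adjusted p = 0.000513), on 303 and 2380 reads. Cemip passed the filter only through Lenv-Treg, and in the limma fit without a filter its adjusted p was 0.00413. Leaving out any 1 library kept the fold between 6.62 and 8.79. With a pseudocount of 0.1 the difference was 2.57, and on recovered reads with voom it was 2.93, since the pseudocount of 1 compresses low values.

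Hyal1 encodes a lysosomal hyaluronidase. It was 3.56, 2.93 and 2.43 FPKM in Ctrl-Treg and 4.39, 4.71 and 3.71 FPKM in Lenv-Treg. The groups were apart but close, with the highest Ctrl-Treg library just below the lowest Lenv-Treg library. Hyal1 rose 1.44-fold (0.41, SE 0.13, adjusted p = 0.0407). The call ended after rescaling to TPM (0.21, adjusted p = 0.329), without a filter (adjusted p = 0.0923), and without Ctrl-Treg replicate 2 or 3 or Lenv-Treg replicate 1 or 2 (adjusted p up to 0.132). Hyal3 and Naa80 overlap Hyal1 in RefSeq, so shared reads are possible.

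Hyal2 encodes a hyaluronidase attached to the cell surface, and it was the most highly expressed of the degrading genes. It was 16.0, 17.3 and 18.1 FPKM in Ctrl-Treg and 19.0, 20.4 and 23.5 FPKM in Lenv-Treg. The groups did not overlap, yet Hyal2 was not called (0.27, SE 0.11, 95% interval 0.02 to 0.52, adjusted p = 0.075). It was called after median-of-ratios scaling (0.47, adjusted p = 0.0132) and was -0.0025 after rescaling to TPM, so its direction rests on the scaling.

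On the log2(FPKM + 1) scale, the binding proteins held both the steepest rise, of Lyve1, and the called fall. With a pseudocount of 0.1 the difference of Cemip (2.57) was larger than that of Lyve1 (2.2). The same held on recovered reads with voom (2.93 and 2.21). Lyve1 encodes a hyaluronan receptor of lymphatic endothelium that a subset of tissue macrophages also carries. It was 14.0, 12.3 and 11.1 FPKM in Ctrl-Treg and 57.0, 64.8 and 51.2 FPKM in Lenv-Treg. All Lenv-Treg libraries were several times higher than any Ctrl-Treg library. The mean rose 4.63-fold, from 12.5 ± 1.5 to 57.7 ± 6.83 FPKM (SD, n = 3; difference 2.12, SE 0.13, adjusted p = 4.91e-05). It stayed called under every alternative run, with differences from 1.88 to 2.33.

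Markers of the cell types that carry LYVE1 did not move alike. Of 5 tested lymphatic endothelial markers, 0 were called in either direction by limma or by voom, and 0 had an unadjusted p below 0.05. Their sum was 94.2 to 219.0 FPKM in Ctrl-Treg and 129.8 to 153.4 FPKM in Lenv-Treg. Ccl21a, a lymphatic chemokine, was 128.8 ± 56.0 and 93.8 ± 3.80 FPKM (-0.34, adjusted p = 0.43), but was called lower without Ctrl-Treg replicate 2 (-0.77, adjusted p = 0.00466). Prox1, the lineage factor, lay outside the filter at 0.424 ± 0.174 and 0.278 ± 0.0412 FPKM. Pdpn, also on that list, is expressed by keratinocytes and fibroblasts as well, and it was called higher without Lenv-Treg replicate 1 (0.71, adjusted p = 0.0225). Of 10 macrophage markers, 4 rose and 1 fell, beside 11.0% and 30.8% of all tested genes. Their sum was 1459.8 to 1964.5 FPKM in Ctrl-Treg and 2132.8 to 2223.0 FPKM in Lenv-Treg. Cd163 (1.67, SE 0.27, adjusted p = 0.00266) and Mrc1 (1.31, SE 0.15, adjusted p = 0.000704), scavenger receptors of resident macrophages, were among those that rose. Folr2, on the same macrophage list, was not called (0.11, adjusted p = 0.653). Its sign turned after rescaling to TPM (-0.18) and without Ctrl-Treg replicate 3 (-0.1). Adgre1, which encodes F4/80, fell (-0.84, adjusted p = 0.0154), a call that ended after median-ratio scaling and without Lenv-Treg replicate 2 or 3 (adjusted p up to 0.0596). The complement genes C1qa and C1qb, the most abundant of the list, were not called (0.26 and 0.30, adjusted p = 0.261 and 0.147). C1qb was called higher after median-of-ratios scaling (0.51, adjusted p = 0.0446), and C1qa was -0.03 after rescaling to TPM. The part of these markers in the Lyve1 result was not tested.

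**Figure D3:**
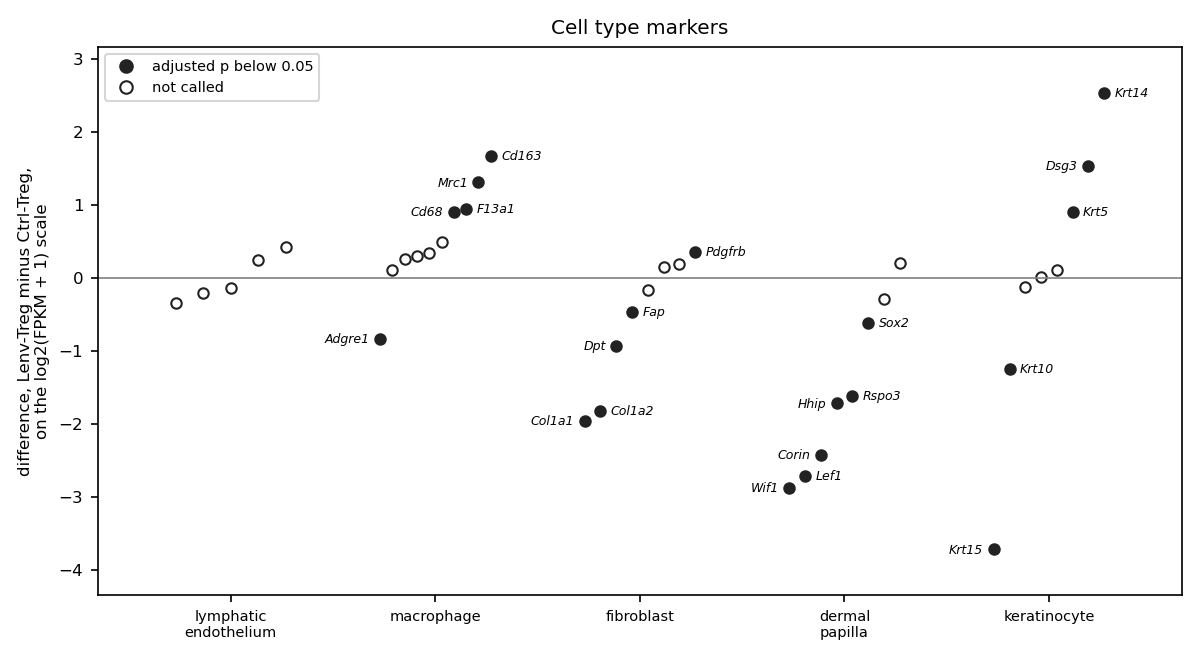
Differences of single marker genes, Lenv-Treg less Ctrl-Treg in log2(FPKM + 1) units (vertical axis), in 5 of the cell type lists; filled points passed an adjusted p of 0.05 and carry their name. None of the 5 lymphatic markers passed, while 4 of 10 macrophage markers passed above 0 and 1 below, and 6 of 8 dermal papilla markers below. Over all tested genes 11.0% passed above and 30.8% below.

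Cd44 encodes the widely expressed hyaluronan receptor of leukocytes, fibroblasts and keratinocytes. It was 33.3, 34.1 and 33.4 FPKM in Ctrl-Treg and 56.5, 51.9 and 61.3 FPKM in Lenv-Treg. The Ctrl-Treg libraries were almost level and all lay well below Lenv-Treg. Cd44 rose 1.68-fold, from 33.6 ± 0.448 to 56.6 ± 4.70 FPKM (SD, n = 3; difference 0.73, SE 0.09, adjusted p = 0.00106). The difference was 0.45 after rescaling to TPM, still called. Neutrophil markers, all 7 tested, were higher in the same libraries. Of 8 keratinocyte markers, 3 were higher and 2 lower, beside 11.0% and 30.8% of all tested genes. They summed to 2966.8 to 4570.9 and 7239.0 to 8999.1 FPKM. The keratinocyte genes did not move alike. Krt14 rose from 769.4 ± 156.0 to 4427.5 ± 139.0 FPKM (2.54, adjusted p = 0.000183), and Krt1 was not called (0.01, adjusted p = 0.99). Krt15 fell from 290.8 ± 38.5 to 21.9 ± 7.9 FPKM (-3.72, adjusted p = 6.73e-05). The lower call of Krt10 ended without any 1 of 4 libraries, without a filter and after median-ratio scaling (adjusted p up to 0.134). T cell markers summed to 11.6 to 18.0 and 8.65 to 14.1 FPKM, with 0 of 4 tested called by limma or by voom and 1 at an unadjusted p below 0.05. Cd3g, a T cell receptor complex gene and the most abundant of that list, was called lower after rescaling to TPM (-0.80, adjusted p = 0.00806). It was also called lower without Ctrl-Treg replicate 2 or Lenv-Treg replicate 3 (adjusted p = 0.0428 and 0.0264). The part of these cells in the Cd44 and Has3 results was not tested, and a gene-level value does not separate the splice forms of Cd44.

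Tnfaip6 encodes TSG-6, a secreted protein that transfers heavy chains of inter-alpha-inhibitor onto hyaluronan and is induced by inflammatory cytokines. It was 8.02, 5.15 and 7.38 FPKM in Ctrl-Treg and 9.97, 11.7 and 21.6 FPKM in Lenv-Treg. The groups did not overlap, but Lenv-Treg replicate 3 stood well above the other libraries of its group. Tnfaip6 rose 2.11-fold, from 6.85 ± 1.51 to 14.4 ± 6.26 FPKM (SD, n = 3; difference 0.92, SE 0.27, adjusted p = 0.0314). Without that library the difference was 0.61 and still called (adjusted p = 0.0489). The call ended without Ctrl-Treg replicate 2 or 3 or Lenv-Treg replicate 2 (adjusted p up to 0.0892) and without a filter (adjusted p = 0.0854).

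Vcan encodes versican, a large proteoglycan that aggregates on hyaluronan and marks the dermal papilla of growing hair follicles. It was 9.02, 11.7 and 12.2 FPKM in Ctrl-Treg and 3.37, 4.32 and 4.15 FPKM in Lenv-Treg. No Lenv-Treg library came near the Ctrl-Treg range. Mean expression was 2.78-fold lower, from 11.0 ± 1.71 to 3.95 ± 0.505 FPKM (SD, n = 3; difference -1.27, SE 0.14, adjusted p = 0.000478), on 19056 and 6967 reads. The difference stayed called under every alternative run, from -1.62 to -1.09.

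Most dermal papilla and some fibroblast markers fell in the same libraries as Vcan. Of all tested genes, 30.8% were lower and 11.0% higher. Of 8 dermal papilla markers, 6 fell and 0 rose, and their sum was 49.7 to 75.7 FPKM in Ctrl-Treg and 27.5 to 35.2 FPKM in Lenv-Treg. Crabp1, the most abundant of them, was 23.1 ± 6.24 and 26.3 ± 2.24 FPKM. It was not called, except as higher without Ctrl-Treg replicate 3 (0.41, adjusted p = 0.0401), and its difference was -0.07 after rescaling to TPM. Wif1, a Wnt inhibitor, fell by 2.88. Of the 6 that fell, Corin, Lef1, Hhip and Sox2 passed the filter only through Ctrl-Treg. Of 8 fibroblast markers, 4 fell and 1 rose, and the sum was 3933.3 to 4864.1 and 2038.5 to 2830.8 FPKM. The calls of Fap (lower) and Pdgfrb (higher) each ended without any 1 of 5 libraries. Col1a2, a type I collagen gene, fell by 1.82, while Dcn, which encodes decorin, was not called (0.19, adjusted p = 0.449, and -0.10 after rescaling to TPM). The part of these cells in the Vcan result was not tested.

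**Figure D4:**
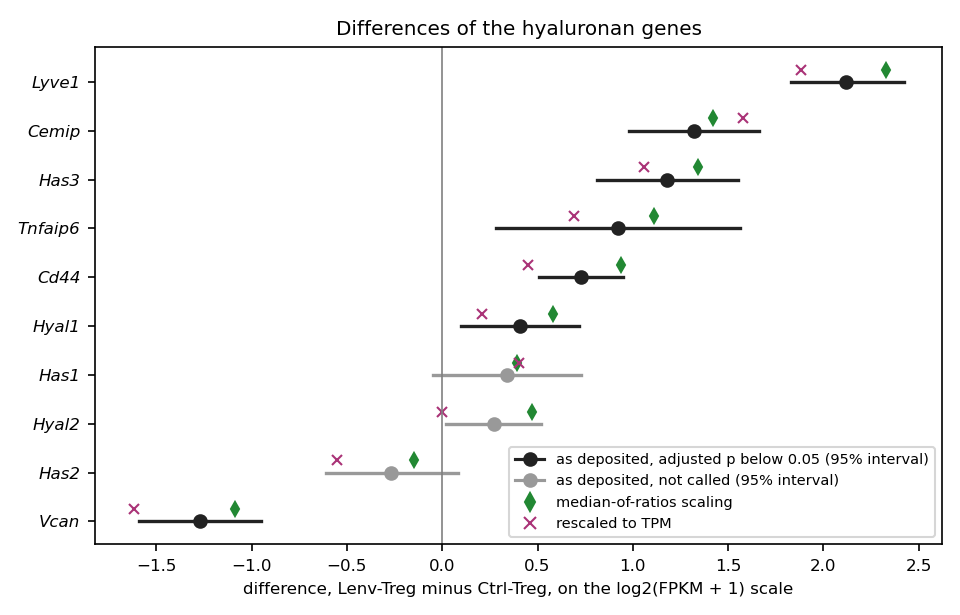
Difference of each of the 10 genes, Lenv-Treg less Ctrl-Treg in log2(FPKM + 1) units (horizontal axis), with its 95% interval from limma; Has1 is from the fit without a filter. Diamonds and crosses give the values after median-of-ratios scaling and after rescaling to TPM. Vcan lies below 0 and Lyve1, Cemip, Has3, Tnfaip6 and Cd44 above it under all 3 scalings, whereas Hyal2 reaches -0.0025 after rescaling to TPM.

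The order of expression within the set changed accordingly. In Ctrl-Treg, Cd44 was highest (33.6 FPKM), followed by Hyal2 (17.1), Lyve1 (12.5), Vcan (11.0), Tnfaip6 (6.85), Hyal1 (2.97), Has3 (2.32), Has2 (1.37), Cemip (0.293) and Has1 (0.198). The library ranges of Lyve1 and Vcan overlapped there, as did those of Hyal1 and Has3. In Lenv-Treg, Lyve1 (57.7 FPKM) and Cd44 (56.6) were highest with overlapping ranges, and Hyal2 (20.9) and Tnfaip6 (14.4), also overlapping, came next. Has3 (6.5) was followed by Hyal1 (4.27) and Vcan (3.95), which overlapped, then by Cemip (2.27), and by Has2 (0.990) and Has1 (0.540), which overlapped.

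The other genes of the pathway were taken from 6 groups by function, 50 genes of which 32 passed the filter, with 8 higher, 7 lower and 17 not called. The background was 11.0% higher and 30.8% lower, and the counts by group below stand beside these shares and were not tested. The median difference of the 32 was 0.10. The higher count was 5 after rescaling to TPM and without Lenv-Treg replicate 2, and the lower count was 11 after rescaling to TPM and 4 after median-of-ratios scaling.

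Precursor enzymes, which make the UDP-sugars that synthases consume, numbered 7, of which 0 rose and 1 fell. Gfpt2, which controls entry of glucose carbon into the hexosamine pathway, fell from 11.4 ± 2.85 to 7.15 ± 1.71 FPKM (-0.61, adjusted p = 0.0433), a call that ended after median-ratio scaling, without a filter and without any 1 of 4 libraries (adjusted p as high as 0.167 in these settings). Ugdh, which makes UDP-glucuronate, was 29.2 ± 1.99 and 23.3 ± 2.99 FPKM (-0.32, adjusted p = 0.0589). It was called lower after rescaling to TPM (-0.61, adjusted p = 0.00466) and without Lenv-Treg replicate 2 (-0.42, adjusted p = 0.0368). Uap1 was called lower only after rescaling to TPM (-0.49, adjusted p = 0.00737, against 0.101 as deposited). Ugp2 was not called (0.11, adjusted p = 0.663), and its sign turned after rescaling to TPM (-0.17) and without Ctrl-Treg replicate 3 or Lenv-Treg replicate 1.

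Of 9 other degrading enzymes, 5 passed the filter, 1 rose and 0 fell. Gusb, the lysosomal beta-glucuronidase, rose from 7.71 ± 0.619 to 10.1 ± 0.416 FPKM (0.35, adjusted p = 0.0212), a call that ended after rescaling to TPM and without any 1 of 3 libraries (adjusted p as high as 0.454 in these settings). Cemip2, a cell-surface relative of Cemip, was 2.79 ± 0.268 and 3.43 ± 0.237 FPKM (0.23, adjusted p = 0.0986), and it was called higher after median-of-ratios scaling (0.39, adjusted p = 0.0193). Hexa, which encodes a lysosomal hexosaminidase subunit, was not called (-0.03, adjusted p = 0.841), and its sign turned after median-of-ratios scaling (0.18) and without Ctrl-Treg replicate 1 or Lenv-Treg replicate 2. Hyal3, Hyal5, Hyal6 and Spam1 lay outside the filter.

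Other receptors did not all move alike. Of 5 tested, 3 rose and 1 fell, beside 11.0% and 30.8% of all tested genes. Stab1, a scavenger receptor of macrophages and sinusoidal endothelium, rose from 10.1 ± 2.20 to 23.7 ± 0.878 FPKM (1.17, SE 0.15, adjusted p = 0.001). Its relative Stab2 lay outside the filter at 0.0760 ± 0.0318 and 0.0525 ± 0.0182 FPKM. Tlr2 (0.91, adjusted p = 0.00128) and Tlr4 (0.44, adjusted p = 0.0187), innate receptors reported to sense hyaluronan fragments, rose, the latter call ending after rescaling to TPM and without any 1 of 3 libraries (adjusted p as high as 0.263 in these settings). Hmmr, a receptor that is also a mitotic spindle protein, fell from 5.53 ± 0.639 to 3.58 ± 0.438 FPKM (-0.51, adjusted p = 0.0118).

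Most of the 16 genes listed as matrix binders were scarce in this skin, and 4 passed the filter, of which 1 rose and 3 fell. Acan, which encodes aggrecan, a proteoglycan of the same family as versican, was 1.93, 2.23 and 2.50 FPKM in Ctrl-Treg and 0.00648, 0.0386 and 0.00327 FPKM in Lenv-Treg (-1.66, SE 0.09, adjusted p = 4.23e-05). Itih5, an inter-alpha-inhibitor heavy chain gene of skin, fell from 18.5 ± 1.78 to 3.77 ± 1.57 FPKM (-2.08, SE 0.22, adjusted p = 0.000446). Habp4 fell by 0.39, a call that ended after median-ratio scaling and without Ctrl-Treg replicate 3 (adjusted p = 0.0502). That gene is listed for hyaluronan binding, and whether its product lies in the matrix was not tested. Ptx3, a pentraxin that joins TSG-6 and heavy chains in hyaluronan matrices, was 0.310, 0.359 and 0.0941 FPKM in Ctrl-Treg and 1.09, 5.36 and 4.93 FPKM in Lenv-Treg (1.78, SE 0.39, adjusted p = 0.0102). Hapln3, a link protein gene outside the filter, was 0.474 ± 0.127 and 0.139 ± 0.0384 FPKM and was called lower in the limma fit without a filter (-0.37, adjusted p = 0.0148). Acan passed the filter only through Ctrl-Treg and Ptx3 only through Lenv-Treg.

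Proteases that cleave versican split. Of 6, 5 passed the filter, 2 rose and 1 fell. Adamts1 rose from 13.2 ± 2.26 to 23.1 ± 0.466 FPKM (0.77, SE 0.12, adjusted p = 0.0024), and Adamts15 from 3.10 ± 0.632 to 8.39 ± 1.46 FPKM (1.19, SE 0.16, adjusted p = 0.00108). Adamts5 was not called (0.17, adjusted p = 0.315, and -0.10 after rescaling to TPM). Adamts20 lay outside the filter at 0.495 ± 0.147 and 0.0429 ± 0.0109 FPKM and was called lower in the limma fit without a filter (-0.51, adjusted p = 0.00734). Adamts9 fell by 0.35, a call that ended after median-ratio scaling, without a filter and without any 1 of 5 libraries (adjusted p as high as 0.224 in these settings).

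Among 6 linkers and sheddases of CD44, 1 rose and 1 fell. Rdx, which encodes radixin, one of the proteins that tie CD44 to actin, fell from 36.5 ± 1.39 to 22.6 ± 1.15 FPKM (-0.67, SE 0.09, adjusted p = 0.00107). Its relative Msn was not called (0.22, adjusted p = 0.234, and -0.07 after rescaling to TPM). Mmp14, a membrane protease that sheds CD44, was 192.5 ± 27.5 and 152.4 ± 12.3 FPKM (-0.33, adjusted p = 0.0947). It was called lower after rescaling to TPM (-0.62, adjusted p = 0.00536) and without Ctrl-Treg replicate 2 (-0.44, adjusted p = 0.0497). Adam17 rose by 0.35, a call that ended after rescaling to TPM, without a filter, without the mean-variance trend and without any 1 of 5 libraries (adjusted p as high as 0.659 in these settings).

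**Figure D5:**
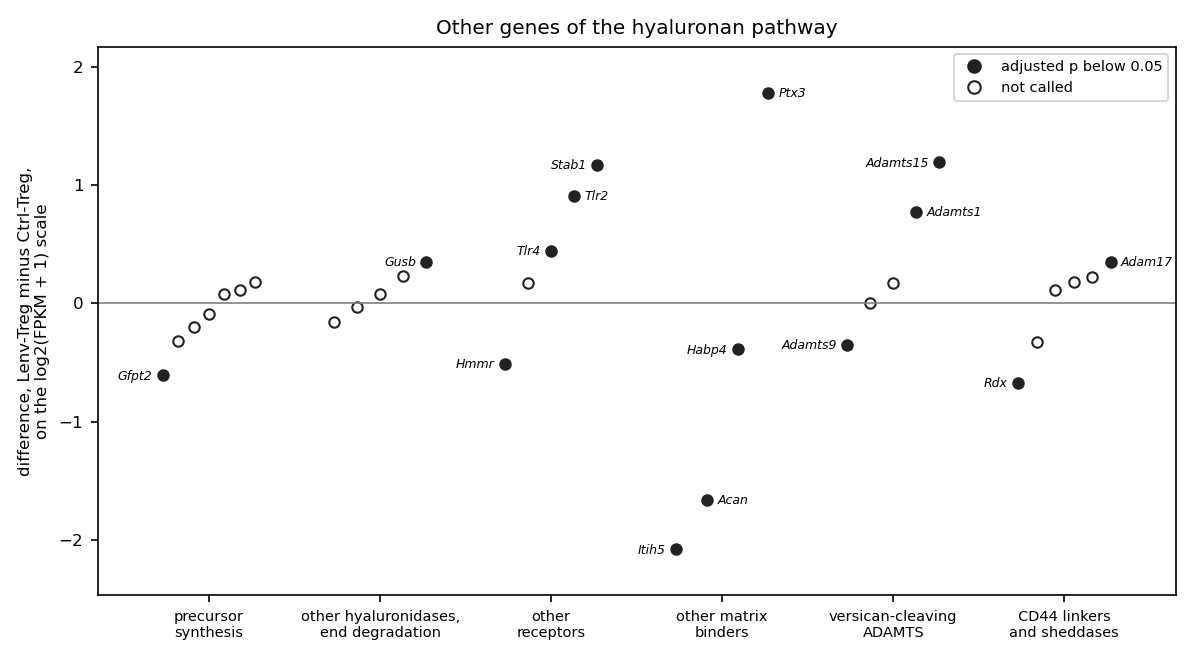
Differences of the 32 tested genes of the pathway outside the set, Lenv-Treg less Ctrl-Treg in log2(FPKM + 1) units (vertical axis), by functional group; filled points passed an adjusted p of 0.05 and carry their name. The widest spread is among the genes listed as matrix binders, from Itih5 (-2.08) to Ptx3 (1.78).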

How the data were processed

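Total RNA of skin was sequenced from 6 samples, 3 per group, grouped by the treatment label. The authors deposited FPKM values for 35434 gene symbols. Per the submitters' processing notes, the genome build was GRCm39. How reads were aligned, counted and filtered, with which annotation and strand setting, is not given in the sources used here. All sample columns matched a title.

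Low FPKM values were whole multiples of 1 step, which gave relative depth, gene length and reads. All 13945 tested genes gave whole reads in all samples, within 0.005 reads plus 1.5e-07 per read, and on simulated data 99.31% of 582 genes were exact. Genes that reached an FPKM of 0.5 in 3 or more samples were tested with limma 3.58.1 in R 4.3.3 (trend, two-sided, Benjamini-Hochberg over all tested genes, threshold 0.05) on log2(FPKM + 1). The script was tested on simulated data. Has1 comes from the fit without a filter. The members, lists and tests were chosen with earlier results of these data known, and the promoter motifs with the sequences in view. Named genes were all 10 members, and per pathway group up to 4, namely 2 by mean FPKM and 2 more by p-value, except 1 gene that is not reported here. The plan was to name up to 2 marker genes per list by mean FPKM, and some of these are not reported here. Stab2, Adamts20, Hapln3 and further marker genes were chosen after their values were seen. Alternatives were the pseudocount (0.1, 0.5), the filter, TPM and median-of-ratios scaling, no trend, the replicate number as a block, voom on recovered reads, and leaving out each library.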

Additional observations from a re-analysis of the deposited data

How the results depend on the processing

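Has3, Cemip, Cd44, Vcan and Lyve1 kept their direction and their call under all 15 alternatives. Rescaling to TPM gave 947 genes higher and 7970 lower, and median-of-ratios scaling gave 2417 and 2417, against 1532 and 4289 as deposited. Leaving out 1 library gave 1152 to 1447 higher and 2780 to 3900 lower, the lowest without Lenv-Treg replicate 2. The members called were 6 higher and 1 lower, with 4 to 6 higher and 1 lower when a library was left out and 2 lower after rescaling to TPM. Rescaling to TPM also gave Has2 -0.55 (called), Hyal1 0.21 (not called) and Hyal2 -0.0025, and median-of-ratios scaling gave Hyal2 0.47 (called). Without a filter Hyal1 (0.41) and Tnfaip6 (0.92) were not called; the differences are the same, and more genes were tested. Leaving out 1 library gave 0.21 to 0.52 for Has1, 0.31 to 0.52 for Hyal1 and 0.61 to 1.13 for Tnfaip6, with fewer samples in each fit. Pathway genes numbered 5 higher and 11 lower after rescaling to TPM, 4 lower after median-of-ratios scaling, and 5 to 8 in either direction when a library was left out. Where not stated, the cause was not tested.

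With the replicate block, Hyal2 was called (0.27, adjusted p = 0.0458), and 1637 genes were higher and 4270 lower. Deviations of same-numbered libraries correlated at 0.196, -0.011 and 0.328, so the numbers were not taken to pair the samples. In replicate 2 the same-numbered library was not the best match. At 49 and 135 reads, depth limits Has1 most.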

Other observations

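For each called member, the tested genes with the most similar profile were sought by Pearson correlation of log2(FPKM + 1) over the 6 libraries, as a description. Because these libraries form separate groups, any gene that differs between groups scores high, and many genes do. The profile closest to Vcan was that of Krt75 (r = 0.9997), a keratin of the hair follicle companion layer, at 31.5, 59.8 and 64.6 FPKM in Ctrl-Treg and 2.18, 4.2 and 3.65 FPKM in Lenv-Treg. Pola2 came next (r = 0.999). Cemip was closest to Tlr6 (r = 0.9984) and Nlrp3 (r = 0.9980), which encode an innate receptor and an inflammasome sensor. Nlrp3 was 0.366, 0.263 and 0.228 FPKM in Ctrl-Treg and 2.87, 5.80 and 4.69 FPKM in Lenv-Treg. Lyve1 was closest to Aqp3 (r = 0.9978), an epidermal water and glycerol channel gene, at 52.9 to 63.0 FPKM in Ctrl-Treg and 197.4 to 223.0 FPKM in Lenv-Treg. Has3 was closest to Asns (r = 0.9976), which encodes asparagine synthetase. The closest genes were Rnd1 for Cd44 (r = 0.9986), Nubp2 for Tnfaip6 (r = 0.9978) and Plod1 for Hyal1 (r = 0.9962).

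Adipocyte and blood vessel markers were also measured, beside a background of 30.8% of all tested genes lower and 11.0% higher. Of 6 adipocyte markers 5 were lower and 0 higher, with sums of 440.2 to 556.3 FPKM in Ctrl-Treg and 228.5 to 264.1 FPKM in Lenv-Treg. Of 6 blood endothelial markers 1 was higher and 0 lower, with sums of 53.1 to 94.0 and 92.8 to 123.2 FPKM. The call, of Emcn, ended without Lenv-Treg replicate 1 or 3, without a filter and after rescaling to TPM (adjusted p up to 0.171), and Pecam1 was called higher after median-of-ratios scaling (adjusted p = 0.0335). Of 6 skeletal muscle markers 0 were called by limma or by voom, and 1 had an unadjusted p below 0.05. That count rests on single libraries, since Acta1, Ckm, Tnnt3 and Mylpf were called lower without Ctrl-Treg replicate 3 (adjusted p from 0.0146 to 0.0364) and Myh1 without Lenv-Treg replicate 1 (adjusted p = 0.0238). Ckm and Myh1 were also called lower after rescaling to TPM.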
